A study of Homo sapiens with 6 samples.

Results

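The 10 genes described here encode receptor tyrosine kinases. They are the 4 fibroblast growth factor (FGF) receptors *FGFR1*, *FGFR2*, *FGFR3* and *FGFR4*, the epidermal growth factor receptor gene *EGFR* with its relatives *ERBB2* and *ERBB3*, the insulin-like growth factor and insulin receptors *IGF1R* and *INSR*, and the neurotrophin receptor *NTRK2*. They were chosen by symbol, and each of the 10 matched 1 gene identifier in the read counts. They are 10 of 23345 genes tested, and 10 of a family of 58 receptor tyrosine kinases. RNA was sequenced from HEK293T cells, a human embryonic kidney line that carries the SV40 large T antigen, grown in DMEM with 10% fetal bovine serum. All cells carried a lentiviral short-hairpin vector, with a nonspecific hairpin in 3 libraries (sh-control) and a hairpin against *RREB1* in 3 libraries (sh-RREB1). *RREB1* encodes the RAS-responsive element binding protein, a zinc finger transcription factor. The labels do not name an added growth factor, and nothing states whether the replicates were separate cultures, so each p measures only the spread between these libraries.

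A receptor tyrosine kinase spans the cell membrane, binds its ligand outside the cell and works as a pair of receptors. It phosphorylates tyrosines on its inner part, where adaptor proteins dock and switch on RAS, the MAPK cascade and AKT. FGF receptors bind FGFs together with heparan sulfate, and FGFR4 is best known as the liver receptor of FGF19. ERBB2 has no known soluble ligand and ERBB3 has little kinase activity of its own, so each signals mainly in pairs with other members of its family. Sequencing measures the mRNA of these receptors, not their amount at the membrane or their phosphorylation.

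The comparison asks how the mRNA of these receptors differs when *RREB1* is targeted, because the study relates *RREB1* to RAS-MAPK signalling downstream of such receptors. *FGFR4* is the receptor whose promoter the study examined. Its sequence is shown beside that of *FGFR3*, the paralogue closest to it in exonic length and GC content, since the ratio of their reads differed between the groups in the results given later. Each line holds the 250 bases before a RefSeq start of the gene on GRCh38.p14, for *FGFR4* the upstream one of 2, both on the plus strand, at chr5:177086665-177086914 for *FGFR4* and at chr4:1793043-1793292 for *FGFR3*. The capitals mark the motif CCCCACC or its reverse complement GGTGGGG, which was searched as a core of the RAS-responsive element.
FGFR4: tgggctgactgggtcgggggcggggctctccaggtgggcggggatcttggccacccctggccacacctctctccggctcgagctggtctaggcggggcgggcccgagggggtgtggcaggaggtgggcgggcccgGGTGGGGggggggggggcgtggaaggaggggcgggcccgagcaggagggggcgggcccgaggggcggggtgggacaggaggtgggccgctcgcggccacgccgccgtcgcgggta
FGFR3: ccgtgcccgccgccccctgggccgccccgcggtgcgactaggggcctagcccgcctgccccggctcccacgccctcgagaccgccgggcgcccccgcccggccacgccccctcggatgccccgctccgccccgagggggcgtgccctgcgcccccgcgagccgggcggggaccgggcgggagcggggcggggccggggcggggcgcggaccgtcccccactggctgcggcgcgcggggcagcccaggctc
The *FGFR4* stretch held 1 match, which starts at base 136 of the 250, and the *FGFR3* stretch held 0. The GC box GGGCGG or its reverse complement CCGCCC was found 7 times in the *FGFR4* stretch and 8 times in that of *FGFR3*, and it does not overlap the capitals. GC content was 79.6% and 86.8%. Of 35116 RefSeq promoters cut to the same length, 17.0% held the RAS-responsive core and 42.6% the GC box, so neither match is rare. Of the 10 receptors, 8 had promoters in that table. The downstream promoter of *FGFR4* held 0 matches to the core and 0 to the GC box. The core was also present once in the promoter of *IGF1R*, in 1 of 5 of *FGFR2* and in 2 of 4 of *NTRK2*. A match is a string of letters and does not show a bound site.

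*RREB1* itself (ENSG00000124782) was at 27.1, 25.1 and 26.6 CPM in the control libraries and at 23.7, 24.6 and 23.1 CPM in those labelled sh-RREB1. CPM are the reads on a gene for every 1000000 reads on genes, scaled with TMM. All sh-RREB1 libraries lay below all sh-control libraries, but by little, and 41.1% of all genes had no overlap between the groups. The log2 fold change of *RREB1* was −0.14 (SE 0.13, adjusted p = 0.486 by edgeR). In a fit corrected for GC content, described in the next paragraph, it was −0.36 (SE 0.12, adjusted p = 0.0534 by edgeR), and with a block for the replicate number added it was −0.37 (adjusted p = 0.0110 by edgeR). None of these passed the threshold of 0.01, and the libraries are named by their labels throughout. The study itself reported much lower *RREB1* mRNA, normalized to *ACTB*, and less RREB1 protein in HEK293 cells with a hairpin against *RREB1*. The gap between that report and these counts was not tested. The HEK293 markers *VIM*, *KRT8*, *KRT18*, *NEFL*, *NEFM*, *LIN28B* and *IRS4* were counted with at least 265 reads in every library, and *PAX2* with 3 to 10. Their median log2 fold change was 0.73, with 7 of 8 above 0. None of the 8 was called, but *VIM* (0.75, adjusted p = 0.00391 by edgeR) and *NEFL* (0.89, adjusted p = 0.00370 by edgeR) passed the adjusted p, and both did so after GC correction (0.68 and 0.92). Of markers for other cell types, *PTPRC* had 0 to 5 reads a library, *ALB* 0 to 16 and *PECAM1* 0 to 4, while *SFTPC* and *INS* had none. The sixth, the blood and vessel marker *CD34*, had 21 to 32 reads in sh-control and 29 to 67 in sh-RREB1, and was called higher, with a log2 fold change of 1.20 (adjusted p = 0.00912 by edgeR), and 1.24 (adjusted p = 0.00162 by edgeR) after GC correction. The part of these markers in any result was not tested.

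The control libraries held 23362197 to 33044061 reads on genes, and those labelled sh-RREB1 held 12257054 to 26145878. Sh-RREB1 replicate 3 was the shallowest, and 52.1% of its aligned reads lay at several positions, compared to 3.66% to 7.63% in the others. Reads on the strand opposite to genes were 24.2% of its reads on both strands, compared to 5.39% and 5.47% in the other sh-RREB1 libraries and 4.92% to 4.94% in sh-control. The part of this strand difference in any result was not tested. Sh-control replicate 1 stood apart in genes rich in G and C. The average of sh-control replicates 2 and 3 exceeded it 3.15-fold for *FGFR4*, 2.16-fold for *ERBB2*, 1.69-fold for *FGFR3* and 1.56-fold for *FGFR1*, the 4 receptors of highest GC content (54.1% to 62.6% of exonic bases). For this reason each receptor's fold change is also given from a GC-corrected fit, which removes how the counts of a library depend on GC content and on exonic length. The groups differ in this dependence, so the correction can also take away a true difference between GC-rich and GC-poor genes.

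Of the 10 receptors, *NTRK2* was called higher and *ERBB3* lower in the libraries labelled sh-RREB1. A call needed more than a log2 fold change of 1 in either direction together with an adjusted p under 0.01 (edgeR, Benjamini-Hochberg over all genes tested). Over all genes tested 3.41% were called, 2.71% higher and 0.698% lower. *IGF1R* passed the adjusted p at a smaller fold, so that 3 of 10 receptors passed it at any fold, compared to 5.5% of all genes. The groups did not overlap in 5 of the 10 receptors, and in 41.1% of all genes. The median log2 fold change was 0.35 over the 10 receptors and 0.01 over all genes tested. After GC correction, *NTRK2*, *ERBB3* and *FGFR3* were called (3.02% of all genes, 1.82% higher and 1.2% lower), and the median of the 10 was 0.08. The adjusted p was then below 0.01 at any fold in 6 of the 10 receptors, compared to 11.4% of all genes. DESeq2 called *NTRK2*, *ERBB3* and *FGFR4* (7.06% of all genes). *FGFR4* and *NTRK2* were picked out by the study on these same libraries, so their direction here is not independent evidence. For *FGFR4* the study also reported other assays, with higher mRNA and protein under hairpins against *RREB1* and lower mRNA when RREB1 was induced. The plot of CPM by library shows the values.

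**Figure D1:**
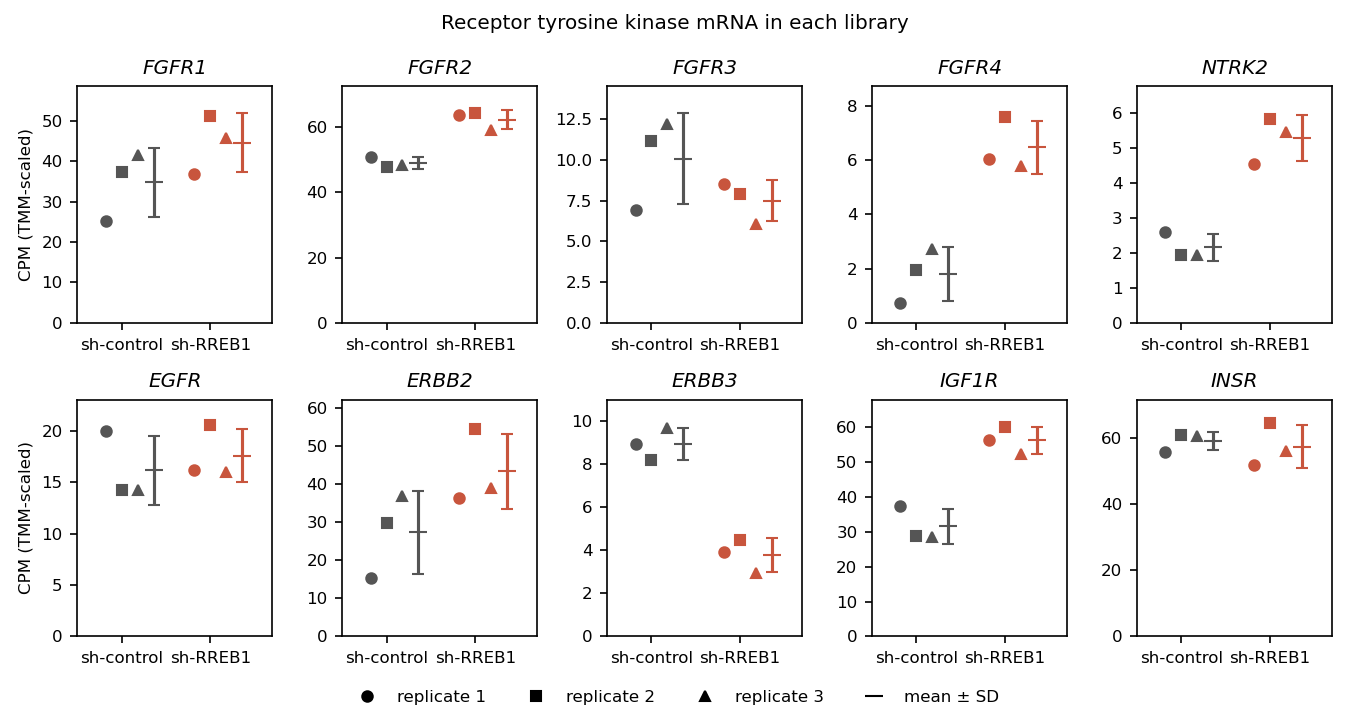
CPM of the 10 receptor mRNAs (y axis, TMM-scaled, each panel on its own scale from 0) in sh-control (grey) and in the libraries labelled sh-RREB1 (red); symbols are replicates 1, 2 and 3, and the bars beside them are the mean ± SD of 3 libraries. The groups are apart in *FGFR2*, *FGFR4*, *NTRK2*, *ERBB3* and *IGF1R* and overlap in the other 5 receptors.

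*FGFR4* (ENSG00000160867, chromosome 5 of GRCh38 from 177086905 to 177098144) had the largest log2 fold change of the 10 without GC correction. After the correction those of *FGFR3*, *NTRK2* and *ERBB3* were larger in size. *FGFR4* was at 0.739, 1.95 and 2.71 CPM in the control libraries, from 17, 53 and 87 reads, and at 6.04, 7.60 and 5.78 CPM in those labelled sh-RREB1, from 150, 199 and 73 reads. Every sh-RREB1 library lay above every sh-control library, and in proportion the sh-control libraries differed among themselves more than those of sh-RREB1. The mean was 1.80 ± 0.993 CPM compared to 6.47 ± 0.983 CPM (SD, n = 3 each), a log2 fold change of 1.82 (SE 0.37, adjusted p = 0.0129 by edgeR), which did not pass. It passed with DESeq2 at the same fold change (adjusted p = 3.19e-05), and in edgeR without sh-control replicate 1, where the log2 fold change was 1.44 (adjusted p = 0.00191). *FGFR4* also passed with a minimum of 1 read summed and with a block for the replicate number (adjusted p = 0.000218 and 0.00272 by edgeR). In the other edgeR fits without GC correction it did not pass (adjusted p = 0.0103 to 0.0606). After GC correction the log2 fold change was 0.75 (SE 0.17, adjusted p = 0.00989 by edgeR), and 0.78 with the block as well (adjusted p = 0.00518 by edgeR). Both passed the adjusted p but not the minimum fold. Without the block, that pass was lost in each of the 6 corrected fits that left out 1 library (log2 fold change 0.64 to 0.92, adjusted p = 0.0107 to 0.0445 by edgeR).

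*FGFR3* (ENSG00000068078, chromosome 4 from 1793293 to 1808872), a receptor known for restraining bone growth, was at 6.91, 11.1 and 12.2 CPM in the control libraries and at 8.53, 7.90 and 6.10 CPM in those labelled sh-RREB1. The groups overlapped through sh-control replicate 1, and the log2 fold change was −0.42 (SE 0.24, adjusted p = 0.263 by edgeR). After GC correction the libraries no longer overlapped. The log2 CPM were then 4.09, 3.82 and 3.73 in sh-control and 2.62, 2.17 and 2.16 in sh-RREB1, for a log2 fold change of −1.53 (SE 0.16, adjusted p = 0.000104 by edgeR). *FGFR3* was called lower in each of the 6 corrected fits that left out 1 library, and in none of the 6 fits without the correction, so its call rests on the correction.

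*FGFR4* and *FGFR3* could be compared within each library, without scaling between libraries, since their exons hold 62.6% and 62.4% G and C and measure 4.81 and 4.85 kb. Sh-control replicates 1, 2 and 3 gave 0.107, 0.175 and 0.222 *FGFR4* reads for each *FGFR3* read. The libraries labelled sh-RREB1 gave 0.708, 0.961 and 0.948. The match in GC content and length did not make the control libraries alike. In CPM, the average of sh-control replicates 2 and 3 exceeded sh-control replicate 1 by 3.15-fold for *FGFR4* and by 1.69-fold for *FGFR3*. The lowest sh-RREB1 ratio was above the highest sh-control ratio, and the means of 0.168 ± 0.0578 and 0.872 ± 0.143 (SD, n = 3 each) differed 5.19-fold (two-sided exact permutation p = 0.1, the smallest that 3 libraries against 3 can give). This ratio was chosen after the values had been seen. As a share of the reads on both genes, *FGFR4* took 14.9% in sh-control replicate 2 (95% Clopper-Pearson interval 11.4% to 19.0%) and 18.2% in sh-control replicate 3 (14.8% to 21.9%), compared to 41.4% in sh-RREB1 replicate 1 (36.3% to 46.7%). These intervals cover counting error only.

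*FGFR1* and *FGFR2*, the FGF receptors with the most reads in these cells, differed less. *FGFR1* (ENSG00000077782), the broadly expressed receptor of many FGFs, was at 25.3, 37.4 and 41.7 CPM in the control libraries and at 36.8, 51.3 and 45.8 CPM in those labelled sh-RREB1. The groups overlapped, and the log2 fold change was 0.36 (95% interval −0.11 to 0.82, adjusted p = 0.259 by edgeR), or −0.03 (−0.26 to 0.20) after GC correction. *FGFR2* (ENSG00000066468, chromosome 10 from 121478332 to 121598458), whose splice forms differ between epithelium and mesenchyme, was at 50.9, 47.6 and 48.4 CPM in the control libraries and at 63.5, 64.2 and 59.0 CPM in those labelled sh-RREB1. All sh-RREB1 libraries were higher, by a log2 fold change of 0.35 (SE 0.11, adjusted p = 0.0555 by edgeR). At 46.5% GC its value barely moved with the correction, to 0.37 (adjusted p = 0.00935 by edgeR), below the minimum fold. In corrected fits with 1 library left out, the adjusted p was below 0.01 only when sh-control replicate 1 or sh-RREB1 replicate 2 was the one omitted, and was 0.0353 to 0.0466 by edgeR in the others.

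Within the FGF receptor family, the shares of *FGFR3* and *FGFR4* differed between the groups by more than the spread of the libraries. These shares were not GC-corrected. The exons hold 46.5% G and C in *FGFR2*, 54.1% in *FGFR1*, 62.4% in *FGFR3* and 62.6% in *FGFR4*. The part of GC content in the shares was not tested. Divided by exonic length, *FGFR4* took 2.67%, 5.47% and 6.97% of the family's reads in sh-control and 14.7%, 16.5% and 14.6% in sh-RREB1, and *FGFR3* took 24.8%, 31.0% and 31.2% and then 20.6%, 17.0% and 15.2%. The groups did not overlap in either share. The mean share of *FGFR4* was 5.04% ± 2.18 and 15.2% ± 1.05, and that of *FGFR3* was 29.0% ± 3.64 and 17.6% ± 2.75 (SD, n = 3 each; exact permutation p = 0.1 for each). *FGFR1* held 28.3% ± 2.41 and 29.4% ± 3.84 (exact permutation p = 0.6), and *FGFR2* 37.7% ± 8.16 and 37.7% ± 2.05. The size of the *FGFR4* share depended on the length used. With the length of the MANE Select transcript, a single reference transcript for each gene, it went from 2.87% to 8.30%, and again the groups did not overlap (exact permutation p = 0.1).

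**Figure D2:**
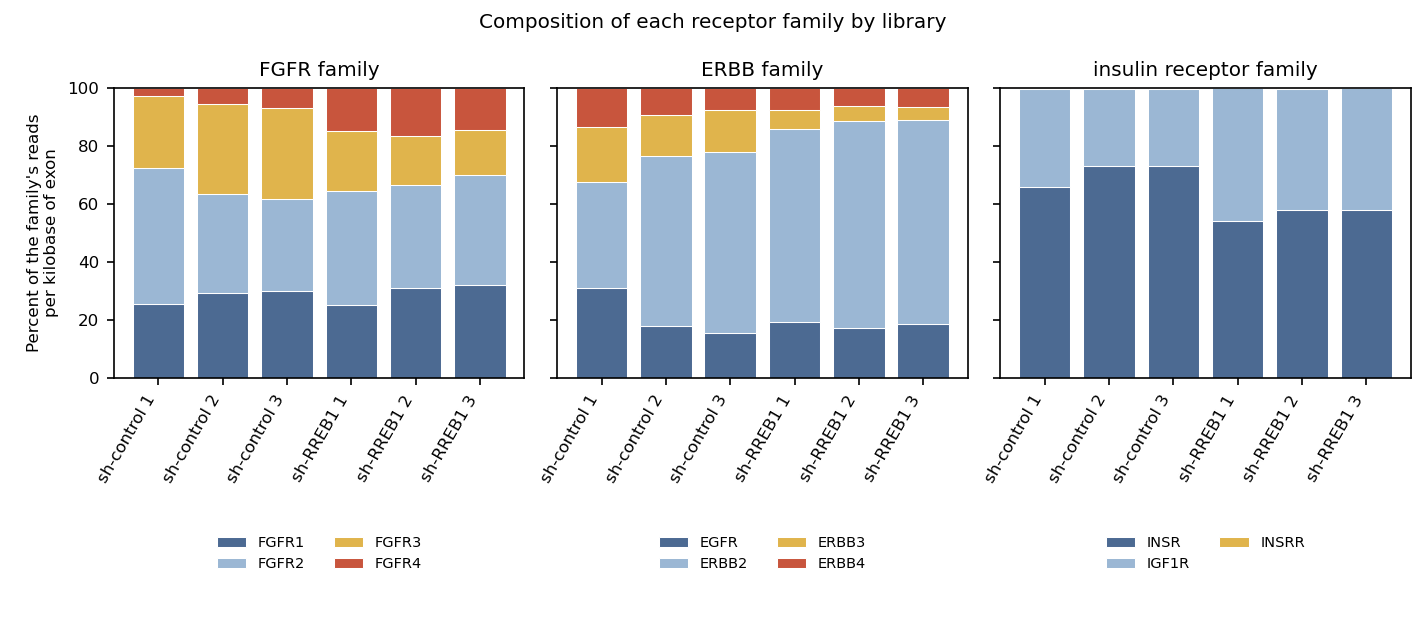
Percent of each family's reads per kilobase of exon (y axis, stacked bars from 0 to 100) that lay on each receptor, by library (x axis), without GC correction. *FGFR4* holds 2.67% to 6.97% in sh-control and 14.6% to 16.5% in sh-RREB1, *ERBB3* holds 14.1% to 18.8% and then 4.66% to 6.32%, and *IGF1R* holds 26.8% to 34.1% and then 41.9% to 45.8%.

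Among the ERBB receptors, *ERBB3* fell. *ERBB3* (ENSG00000065361, chromosome 12 from 56076799 to 56103505), the neuregulin receptor that couples strongly to PI3 kinase, was at 8.91, 8.16 and 9.65 CPM in the control libraries and at 3.90, 4.47 and 2.93 CPM in those labelled sh-RREB1. The groups were far apart compared to their spread, with means of 8.91 ± 0.745 and 3.77 ± 0.777 CPM (SD, n = 3 each). The log2 fold change was −1.22 (SE 0.20, adjusted p = 0.00625 by edgeR), which is 0.429-fold, and −1.33 (adjusted p = 0.000167 by edgeR) after GC correction. With 1 library left out, the log2 fold change ran from −1.36 to −1.09, and the adjusted p (0.00204 to 0.0358) passed only without sh-control replicate 1. In the corrected fits it was called in 6 of 6. Reads on the opposite strand were 4.31% to 11.9% of those on both strands, with 37 to 310 reads counted on the strand of the gene.

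*ERBB2* and *EGFR* did not pass. *ERBB2* (ENSG00000141736, chromosome 17 from 39687914 to 39730426) was at 15.4, 29.8 and 36.8 CPM in the control libraries and at 36.4, 54.5 and 38.9 CPM in those labelled sh-RREB1. The groups overlapped and both spread widely. The log2 fold change was 0.66 (95% interval −0.01 to 1.34, adjusted p = 0.151 by edgeR), and 0.01 (−0.26 to 0.27) after GC correction. Opposite-strand reads were 10.4% to 15.1% of those on both strands of *ERBB2*. *EGFR* (ENSG00000146648, chromosome 7 from 55019017 to 55211628), which binds epidermal growth factor, was at 20.0, 14.2 and 14.2 CPM in the control libraries and at 16.1, 20.5 and 16.0 CPM in those labelled sh-RREB1, a log2 fold change of 0.13 (95% interval −0.31 to 0.56, adjusted p = 0.699 by edgeR), and 0.15 (−0.15 to 0.45) after GC correction. Per kilobase of exon, *ERBB3* took 15.8% ± 2.59 of the ERBB family in sh-control and 5.38% ± 0.852 in sh-RREB1 (SD, n = 3 each, exact permutation p = 0.1). *ERBB2*, the most GC-rich of the family at 57.6%, took 52.6% ± 13.8 and 69.4% ± 2.34. Its share was 36.8%, 58.6% and 62.4% in the control libraries and 66.8% to 71.3% in sh-RREB1. These shares were not GC-corrected. *ERBB4*, which is not among the 10, had a log2 fold change of −0.23 (adjusted p = 0.428 by edgeR), and 0.0076 (adjusted p = 0.982 by edgeR) after GC correction.

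In the insulin receptor family *IGF1R* passed the adjusted p and *INSR* did not. *IGF1R* (ENSG00000140443, chromosome 15 from 98648539 to 98964530), which binds the insulin-like growth factors, was at 37.3, 28.8 and 28.6 CPM in the control libraries and at 56.3, 60.1 and 52.3 CPM in those labelled sh-RREB1. All sh-RREB1 libraries were higher, 1.78-fold, for a log2 fold change of 0.83 (SE 0.15, adjusted p = 0.00772 by edgeR), and 0.67 (adjusted p = 0.00687 by edgeR) after GC correction. It was not called, because the fold was below the minimum. With 1 library left out, the adjusted p passed only without sh-control replicate 1 (0.00133, log2 fold change 0.94) and was 0.0229 to 0.0504 in the other 5 fits by edgeR. After GC correction it again passed only without sh-control replicate 1 (0.000168, compared to 0.0137 to 0.0387). *INSR* (ENSG00000171105, chromosome 19 from 7112255 to 7294414), the insulin receptor, was at 55.9, 60.8 and 60.6 CPM in the control libraries and at 51.7, 64.4 and 56.0 CPM in those labelled sh-RREB1, and the groups overlapped. Its log2 fold change was −0.04 (95% interval −0.32 to 0.24, adjusted p = 0.850 by edgeR), and −0.16 (−0.33 to 0.01) after GC correction. Per kilobase of exon the share of *IGF1R* in the family was 29.2% ± 4.24 in sh-control and 43.2% ± 2.20 in sh-RREB1 (SD, n = 3 each; exact permutation p = 0.1), with no overlap between groups.

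*NTRK2* (ENSG00000148053, chromosome 9 from 84668375 to 85095751) encodes TrkB, the receptor of brain-derived neurotrophic factor in neurons. It was at 2.61, 1.95 and 1.93 CPM in the control libraries, from 53 to 62 reads, and at 4.55, 5.84 and 5.47 CPM in those labelled sh-RREB1, from 69 to 153 reads. The groups did not overlap, with means of 2.16 ± 0.386 and 5.29 ± 0.666 CPM (SD, n = 3 each). *NTRK2* rose by a log2 fold change of 1.29 (SE 0.21, adjusted p = 0.00622 by edgeR), which is 2.45-fold, and by 1.40 (adjusted p = 0.000199 by edgeR) after GC correction, its exons holding 42.7% G and C. With 1 library left out, the log2 fold change ran from 1.19 to 1.41, and the adjusted p (0.00161 to 0.0432) passed only without sh-control replicate 1. In the corrected fits it was called in 6 of 6.

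The plot of fold changes sets both fits side by side. For *FGFR2*, *NTRK2*, *EGFR*, *ERBB3*, *IGF1R* and *INSR*, with 42.7% to 50.9% GC, the log2 fold change moved by at most 0.16 with the correction. For *FGFR1*, *ERBB2*, *FGFR4* and *FGFR3*, with 54.1% to 62.6% GC, it was lower by 0.39 to 1.11 after the correction.

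**Figure D3:**
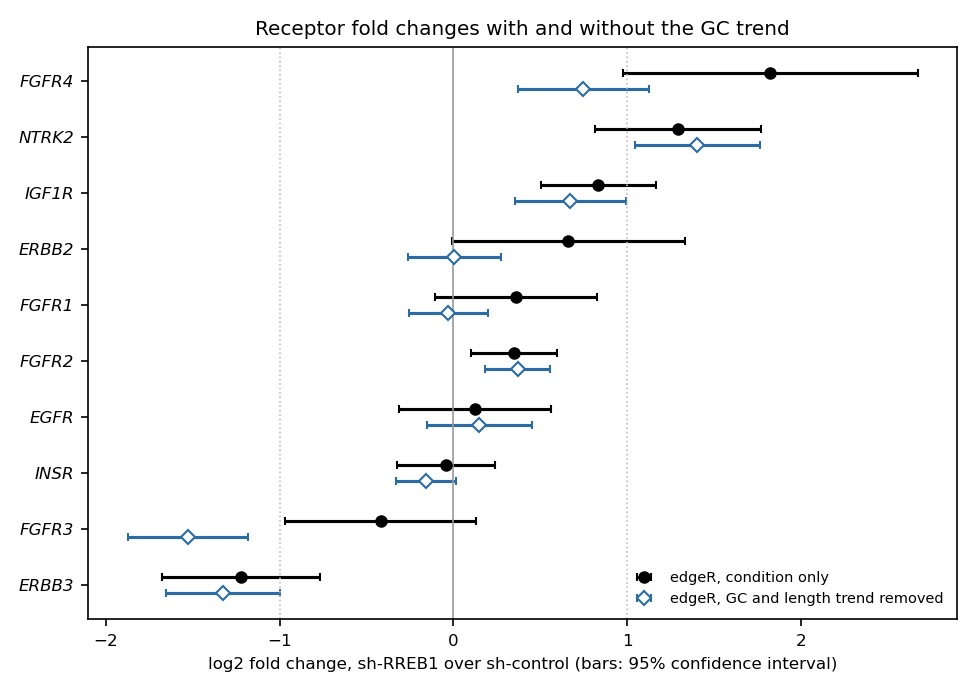
Log2 fold change of the 10 receptors, sh-RREB1 over sh-control (x axis), in edgeR with condition only (black) and after GC correction (blue); bars are 95% confidence intervals and dotted lines mark the minimum fold for a call. *FGFR4* goes from 1.82 to 0.75 and *FGFR3* from −0.42 to −1.53, while *NTRK2* and *ERBB3* stay beyond the dotted lines.

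Per kilobase of exon, over all annotated exons of a gene, *INSR* mRNA had the highest mean level of the 10 in both groups, at 5.46 ± 0.259 CPM per kb in sh-control and 5.30 ± 0.597 in sh-RREB1 (SD, n = 3 each), where it overlapped with *ERBB2*. In sh-control *ERBB2* (2.65 ± 1.06 CPM per kb), *FGFR2* (2.60 ± 0.0902), *IGF1R* (2.26 ± 0.359), *FGFR3* (2.08 ± 0.578) and *FGFR1* (2.02 ± 0.495) followed, and each neighbour in this order overlapped with the next. *EGFR*, *ERBB3*, *FGFR4* and *NTRK2* came below, at 1.01, 0.761, 0.374 and 0.0652 CPM per kb, and no neighbours among them overlapped. In sh-RREB1 *IGF1R* was next after *INSR* and *ERBB2*, at 4.03 ± 0.279 CPM per kb and *FGFR4* stood at 1.35 ± 0.204, above *EGFR* and *ERBB3*, though *FGFR4* overlapped with *FGFR3* above it and *EGFR* below it. These levels were not GC-corrected, and the order depends on the length. With MANE Select transcripts *FGFR2* came first in both groups, at 10.6 and 13.5 CPM per kb, and *INSR* came after it in sh-control and after *ERBB2* and *FGFR1* as well in sh-RREB1.

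The other 48 receptor tyrosine kinases place the 10 in their family. Of these, 41 were tested, and 3 were called, compared to 3.41% of all genes. *EPHA3*, an ephrin receptor, rose from 22.4, 22.7 and 21.6 CPM in the control libraries to 48.7, 43.0 and 48.9 CPM (log2 fold change 1.08, adjusted p = 0.00254 by edgeR). *EPHA8*, another ephrin receptor, also rose (log2 fold change 2.06, adjusted p = 0.00516 by edgeR), from only 5 to 10 reads in sh-control and 14 to 35 in sh-RREB1. *KDR*, the main receptor of vascular endothelial growth factor, fell from 3.56, 3.31 and 3.30 CPM to 1.57, 1.72 and 1.58 CPM (log2 fold change −1.05, adjusted p = 0.00852 by edgeR). The median log2 fold change of the 41 was 0.28, compared to 0.35 over the 10 receptors. After GC correction, *EPHA3* was called higher (1.32) and *EPHA2* and *EPHB6* lower (−1.38 and −1.18), while *KDR* missed the minimum fold at −0.99. *EPHA8*, with 63.2% GC, lost its call, at 0.91 (adjusted p = 0.0801 by edgeR). *EPHA2* and *EPHB6* have 60.4% and 60.9% GC, and neither was called without the correction.

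**Figure D4:**
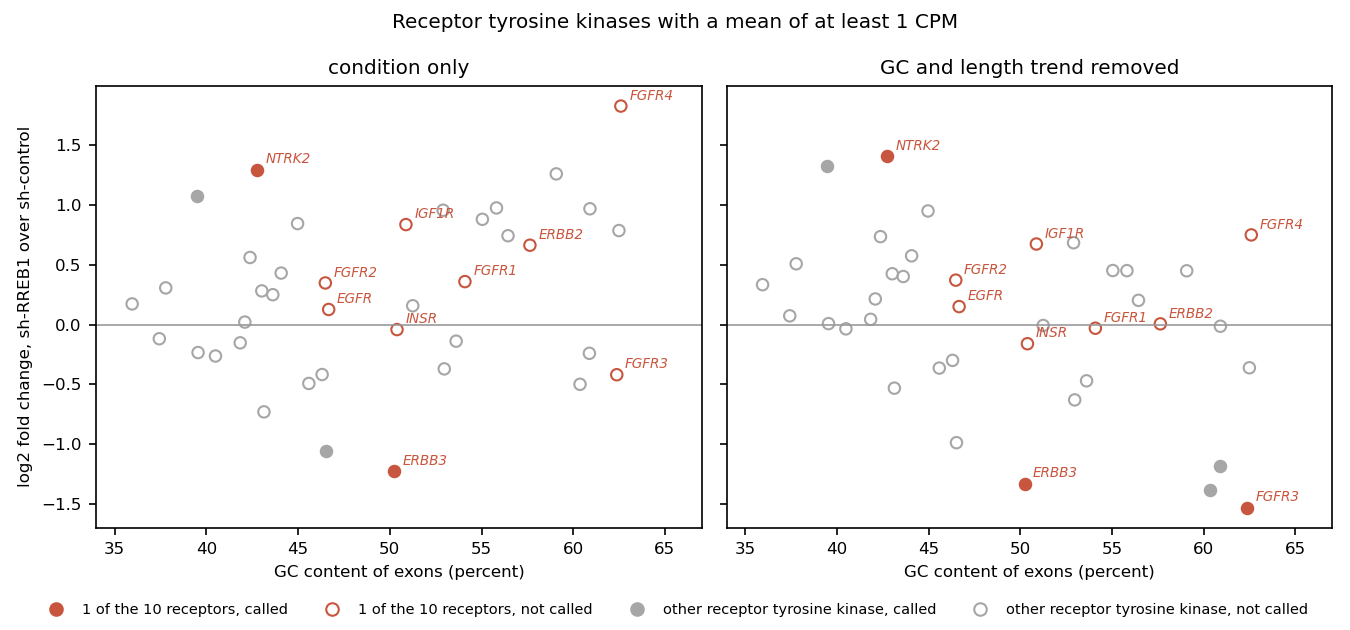
Log2 fold change, sh-RREB1 over sh-control (y axis), against the GC content of the exons (x axis, percent) for 39 receptor tyrosine kinases with a mean of at least 1 CPM, with condition only (left) and after GC correction (right); red circles are the 10 receptors, grey circles the other 29, and filled circles were called. *FGFR4* and *FGFR3* lie at nearly the same GC content and stay far apart in both panels.

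Among the genes that work with these receptors *FGFRL1*, *SDC1*, *GPC1*, *NRG2* and *PTPRF* were called higher, and each was below the minimum fold after GC correction. The counts that follow stand beside 3.41% called over all genes. Of 25 FGF ligands and co-receptors, 14 were tested and 1 was called, *FGFRL1*, an FGF receptor without a kinase domain, which rose from 3.17, 4.63 and 5.23 CPM to 14.4, 12.7 and 12.5 CPM (log2 fold change 1.60, adjusted p = 0.00356 by edgeR). At 65.5% GC it had a log2 fold change of 0.15 (adjusted p = 0.619 by edgeR) after GC correction. *FGF5*, a ligand, was called only after GC correction (log2 fold change 1.50, adjusted p = 0.00303 by edgeR). Of 12 core proteins and polymerases of heparan sulfate, all were tested, and *SDC1* and *GPC1* were called higher, with a log2 fold change of 1.76 for the first (adjusted p = 0.00366 by edgeR) and of 2.16 for the second (adjusted p = 0.00348 by edgeR). With the trend removed these were 0.93 and 0.83, below the minimum fold. The FGF list had a median log2 fold change of 0.28 and the heparan sulfate list of 0.04.

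Of 17 ligands of the ERBB, insulin and neurotrophin receptors, 11 were tested and 1 was called. This was *NRG2*, a neuregulin that binds ERBB3, which rose by a log2 fold change of 1.50 (adjusted p = 0.00704 by edgeR; 0.50 after GC correction). Of 13 negative regulators 12 were tested and *PTPRF*, a receptor tyrosine phosphatase, was called higher at 1.39 (adjusted p = 0.00954 by edgeR; 0.62 after GC correction). Of 21 adaptors none was called by edgeR, 9 had an unadjusted p below 0.05 (34.4% of all genes), and DESeq2 called 1 (7.06% of all genes). The median log2 fold change was −0.04 over the ligands, −0.15 over the negative regulators and 0.03 over the adaptors, compared to 0.01 over all genes.

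The genes closest to *FGFR4* and to *NTRK2* in pattern were found by the root mean square difference of log2 CPM, centred for each gene, over the 6 libraries and 14505 genes with a mean of at least 1 CPM. For *FGFR4* these were *GNB2* (0.071), *YDJC* (0.076) and *FLNA* (0.078), with 63.9%, 67.5% and 62.5% GC. *FLNA*, which encodes the actin crosslinker filamin A, was at 34.4, 88.0 and 117 CPM in the control libraries and at 290, 387 and 270 CPM in those labelled sh-RREB1. As in *FGFR4*, sh-control replicate 1 was the lowest of all libraries. For *NTRK2* they were *SGPP2* (0.111), *MCIDAS* (0.117) and *ST6GALNAC5* (0.120), with 47.8%, 54.3% and 43.0% GC. All 6 had no overlap between groups, as did 41.1% of all genes. They were chosen for likeness to *FGFR4* and *NTRK2*, which had none, so this follows from the choice. These measures describe likeness over 6 libraries, which share depth and base composition effects.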

How the data were processed

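RNA of 6 HEK293T libraries, 3 sh-control and 3 sh-RREB1, was sequenced with a stranded total RNA kit. The authors aligned reads with STAR to hg38 with Gencode 25 and deposited raw read counts per gene, unnormalized. A merged table held the same counts for all 24635 of its identifiers. Only counts on the strand of the gene entered, and reads on no gene, on several genes or at several positions stayed out. Of 58037 identifiers, 45 pseudoautosomal duplicates were dropped, and of those with a common symbol the one with most reads was kept. Genes with at least 10 reads summed were tested (23345) with edgeR 4.0.16 (quasi-likelihood, TMM, condition only) in R 4.3.3. Alternatives were DESeq2 1.42.0 (the study's tool), both strands, the merged table, other filters, scalings and thresholds, the replicate number as a block, libraries left out, and an offset for each library's dependence on GC content and exonic length (natural splines, 5 degrees of freedom). Coordinates, lengths and GC content came from Gencode 44 on GRCh38, and promoters from RefSeq. Log2 CPM carry a prior count of 0.5. Depth and the 3 libraries a group set the precision.

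The receptors and gene lists were chosen with earlier results of these data known. Named are the 10 receptors, *RREB1*, called genes of the lists (up to 15, mean of at least 1 CPM) and the 3 genes most like *FGFR4* and *NTRK2*. *EPHA8*, *EPHA2*, *EPHB6*, *FGF5*, *ERBB4*, the MANE Select length, the corrected fits with 1 library left out and the ratio of *FGFR4* to *FGFR3* were added after values had been seen.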

Additional observations from a re-analysis of the deposited data

Results flagged for a closer look

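Reads on the strand opposite to *FGFR3*, which no comparison used, were a larger share of the reads on both strands in every sh-RREB1 library than in any sh-control library, with a mean of 4.19%. They numbered 4 of 216, 10 of 217 and 5 of 82 reads in the libraries labelled sh-RREB1 and 1 of 160, 2 of 305 and 4 of 396 in sh-control. Over all genes this share was 24.2% in sh-RREB1 replicate 3, 5.47% and 5.39% in sh-RREB1 replicates 1 and 2, and 4.92% to 4.94% in sh-control, so it was higher in sh-RREB1 library-wide as well. The 95% Clopper-Pearson intervals of sh-RREB1 replicate 1 (0.507% to 4.67%) and sh-control replicate 3 (0.276% to 2.57%) overlap, and the cause was not tested.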

How the results depend on the processing

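Precision is limited by 3 libraries per group and by low counts of *FGFR4* and *NTRK2*. The count of all genes called (795) was 1647 with DESeq2, 1804 with a minimum of 1 read, 1685 with the replicate number as a block, 2039 at an adjusted p below 0.05 and 8 to 1119 with 1 library left out. Called receptor tyrosine kinases (5) were 8 with DESeq2, 8 with a minimum of 1 read, 10 with the block, 9 at an adjusted p below 0.05 and 0 to 7 with 1 library left out. Of the 10 receptors, 2 were called in the main fit and 0 to 3 with 1 library left out. That count was 3 only without sh-control replicate 1, and 0 when another library was left out. Same-numbered libraries correlated at 0.50, 0.43 and −0.28 in their deviations. The last of these holds sh-RREB1 replicate 3, with 52.1% of its aligned reads at several positions. Sh-control replicate 3 and sh-RREB1 replicate 2, of unlike number, correlated at 0.56. These values cannot tell whether the numbers pair the samples. With the block 3 receptors were called, *FGFR4* among them at a log2 fold change of 1.94.

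The difference in *FGFR4* share, 10.2 percentage points, was 3.52 with reads not divided by length and 5.43 with the MANE Select length, and 9.02 to 11.2 with 1 library left out. Its permutation over same-numbered pairs, as a replicate block, gave the same difference (exact p = 0.25, the smallest that so few pairs can give). The difference in *FGFR1* share (1.16) was −0.22 when sh-control replicate 1 was left out and −0.23 when sh-RREB1 replicate 3 was (−0.23 to 3.35 with 1 library left out). The ratio of *FGFR4* to *FGFR3* reads was 4.40-fold to 6.19-fold higher with 1 library left out.

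The log2 fold change changed sign in *FGFR1*, *EGFR*, *ERBB2* and *INSR*. In the main fit these were at 0.36, 0.13, 0.66 and −0.04, so those of *FGFR1* and *ERBB2* started well away from 0. The values of changed sign were −0.12 to 0.037. That of *FGFR1* was −0.031 after GC correction, −0.025 with the block as well, and −0.11 to 0.02 in corrected fits with 1 library left out (−0.0015 without sh-RREB1 replicate 2, −0.094 without sh-RREB1 replicate 3). That of *EGFR* was −0.0036 without sh-RREB1 replicate 2, and −0.0036 to 0.27 over all libraries left out. That of *ERBB2* was −0.12 in the corrected fit without sh-control replicate 1 and −0.042 in the one without sh-RREB1 replicate 2. That of *INSR* was 0.014 with filterByExpr, 0.037 with library totals only and 0.030 without sh-RREB1 replicate 1 (−0.13 to 0.030 over all libraries left out). For *FGFR2*, *FGFR3*, *FGFR4*, *NTRK2*, *ERBB3*, *IGF1R* and *RREB1* it kept its sign under all 22 alternatives. The causes of these changes were not tested.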
